A study of Mus musculus with 15 samples.

Results

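Described here are 40 mouse genes of the antioxidant defence, the NRF2 pathway and its targets, read out in the cortex of aged mice that carry a ribosomal protein variant, which the series ties to error-prone protein synthesis. The 40 genes were named by a written list of symbols, not by their values, and each of them had 1 row among the 22524 genes of the count tables. The study sequenced total RNA from 15 female C57BL/6 mice aged 18 months. In 7 of them 1 copy of Rps9, a protein of the small ribosomal subunit, carried the D95N substitution (genotype Rps9 D95N / Rps9 WT, heterozygous; called D95N below), and the other 8 were wild-type littermates (WT). The labels name no treatment, no tissue-specific driver and no other allele in either group. Animals are named by genotype and by the animal number of their label. Each library comes from 1 animal, so p-values measure the spread between animals.

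The series names brain cortex as its tissue and the tissue field of the samples names skeletal muscle, so marker genes were read first. Summed over 6 neuronal markers the level was 6252 to 6926 CPM, a library's counts put on a common scale for depth, in every library. Summed over 7 skeletal muscle markers it was 7.10 to 29.7 CPM, so the libraries carry brain RNA with muscle transcripts near the floor. Total counts per library ran from 23349381 to 34587082. The transcript count of Rps9 cannot show the substitution, so the genotype labels were not checked by it.

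As background, NRF2, encoded by Nfe2l2, is the transcription factor that drives the cell's answer to oxidants and electrophiles. KEAP1 holds NRF2 in the cytosol and hands it to a CUL3 ubiquitin ligase for destruction. When cysteines of KEAP1 are modified, NRF2 escapes, pairs with a small MAF protein in the nucleus and binds antioxidant response elements (ARE), where BACH1 otherwise represses. Its classical targets supply glutathione, thioredoxin reduction, haem breakdown, iron storage and NADPH. NRF2 is governed largely at the protein level, so a transcript level of Nfe2l2 or Keap1 does not measure its activity. In the brain, astrocytes are known to hold most of this programme, and neurons depend on them for glutathione precursors.

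All 40 genes passed the filter on low counts and were tested. In D95N cortex 6 of them rose and 2 fell, and the other 32 did not pass the test at an adjusted p of 0.05 (edgeR quasi-likelihood test, adjusted over 14989 genes). Those that rose were Srxn1, Hmox1, Prdx5, Gclc, Fth1 and Txnrd1. The pair that fell, Gstm1 and Gstm5, are glutathione transferases. Among all genes tested 26.8% were called, 15.2% higher and 11.6% lower, so 20% of this list is a share no larger than the background. The median log2 fold change was 0.04 over the 40 genes and -0.01 over all genes, with 25 of the 40 above 0 and 15 below. The log2 fold changes of the 40 genes ran from -0.28 (Gpx3, not past the test) to 0.71 (Srxn1). In bulk tissue fewer cells of a type and less RNA per cell cannot be told apart.

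**Figure D1:**
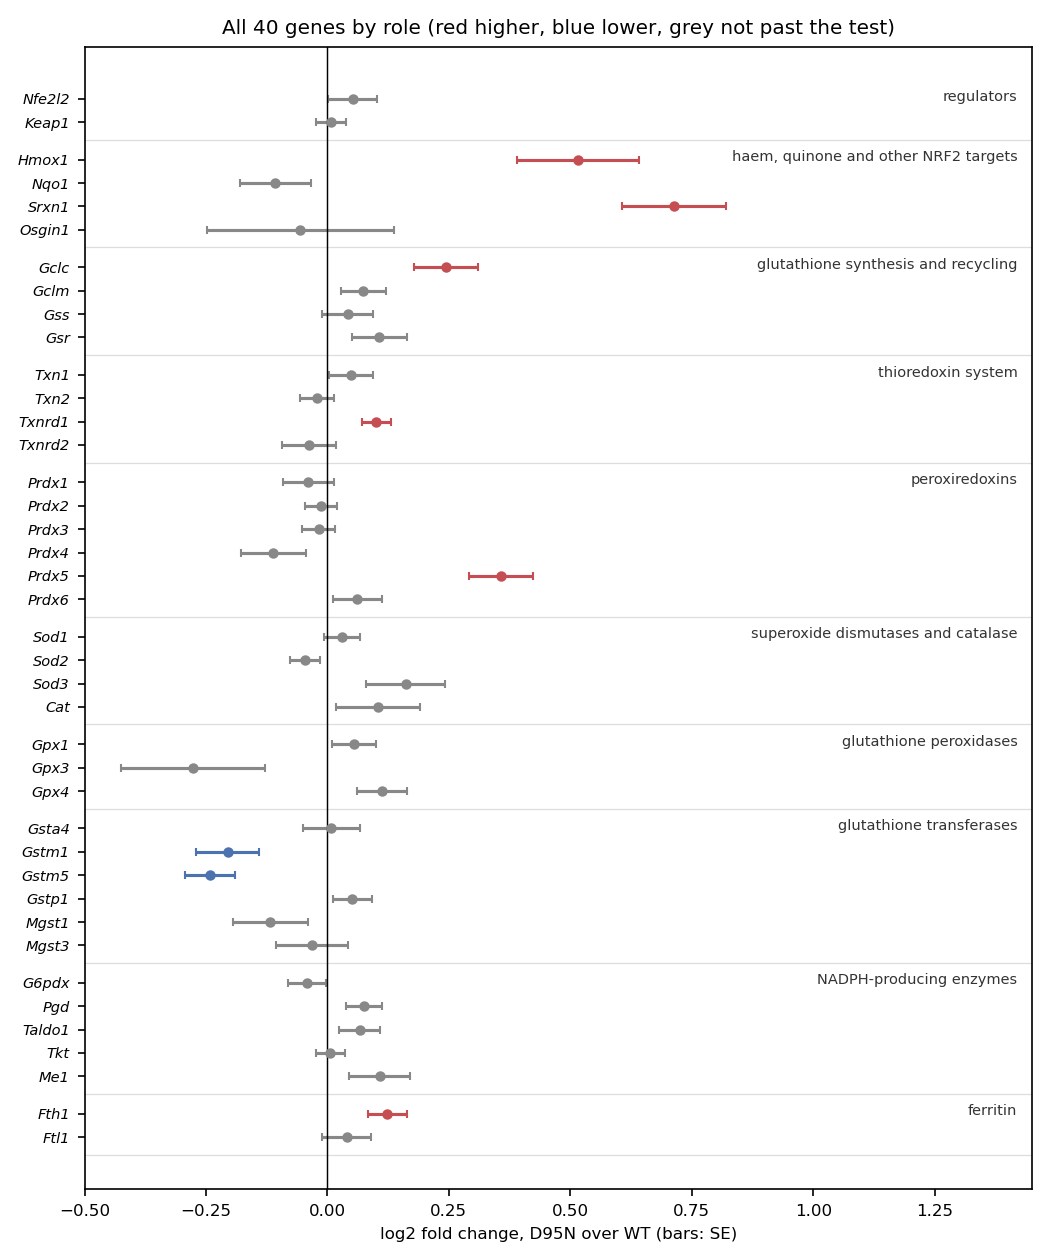
Log2 fold change of D95N over WT for each of the 40 genes, grouped by role, with bars for the standard error (7 D95N and 8 WT libraries). Srxn1 at 0.71 and Hmox1 at 0.52 lie farthest to the right, and of the genes to the left of 0 only Gstm1 and Gstm5 are blue, that is, past the test.

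The sequence in front of these genes shows how differently they are built. Promoter windows were taken from RefSeq (GRCm38.p6), 300 bases each, and 34 of the 40 genes had at least 1. Hmox1, Gclc, Prdx6, Gsr, Gsta4 and Sod3 were not among them. Each window was searched on both strands for the ARE core, TGACNNNGC, for the AP-1 site, TGACTCA, which can overlap the core, and for TGACTCAGC, which holds both. Printed are 250 bases before the RefSeq start and 30 from it, 5′ to 3′ on the gene's strand. Capitals mark a match to the ARE core or the AP-1 site on either strand. Srxn1, Txnrd1 and Prdx5 rose, Gstm5 fell, and Prdx1 and Me1 are shown because they hold the exact letters TGACTCAGC and did not pass the test.
Srxn1, chr2:152105274-152105553, plus strand: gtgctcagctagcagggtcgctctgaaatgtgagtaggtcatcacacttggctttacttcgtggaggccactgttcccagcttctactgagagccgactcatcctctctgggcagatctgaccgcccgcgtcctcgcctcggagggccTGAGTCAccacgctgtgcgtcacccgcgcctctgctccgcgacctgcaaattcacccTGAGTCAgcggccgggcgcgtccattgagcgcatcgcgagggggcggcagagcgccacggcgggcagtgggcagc
Txnrd1, chr10:82858956-82859235, plus strand: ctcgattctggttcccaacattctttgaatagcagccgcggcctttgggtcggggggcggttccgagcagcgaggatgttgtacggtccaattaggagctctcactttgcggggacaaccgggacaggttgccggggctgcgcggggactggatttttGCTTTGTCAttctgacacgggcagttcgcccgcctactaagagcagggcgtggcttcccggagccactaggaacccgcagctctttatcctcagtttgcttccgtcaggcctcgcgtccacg
Prdx5, chr19:6910077-6910356, minus strand: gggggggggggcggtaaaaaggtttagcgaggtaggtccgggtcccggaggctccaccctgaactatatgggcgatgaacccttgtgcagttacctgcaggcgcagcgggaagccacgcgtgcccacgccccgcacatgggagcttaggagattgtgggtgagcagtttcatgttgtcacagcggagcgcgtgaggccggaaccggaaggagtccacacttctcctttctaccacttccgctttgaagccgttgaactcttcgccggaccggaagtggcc
Gstm5, chr3:107895604-107895883, plus strand: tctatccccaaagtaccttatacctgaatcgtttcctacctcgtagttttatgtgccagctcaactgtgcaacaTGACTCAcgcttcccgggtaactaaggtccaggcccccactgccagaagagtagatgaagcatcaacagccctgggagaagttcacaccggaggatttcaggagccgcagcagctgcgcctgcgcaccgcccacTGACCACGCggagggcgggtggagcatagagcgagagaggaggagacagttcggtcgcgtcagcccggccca
Prdx1, chr4:116685349-116685628, plus strand: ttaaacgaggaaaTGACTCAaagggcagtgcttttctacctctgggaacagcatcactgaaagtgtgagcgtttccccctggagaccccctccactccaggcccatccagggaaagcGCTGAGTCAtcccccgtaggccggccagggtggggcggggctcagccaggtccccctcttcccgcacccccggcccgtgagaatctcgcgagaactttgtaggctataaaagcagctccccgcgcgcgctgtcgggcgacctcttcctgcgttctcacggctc
Me1, chr9:86695885-86696164, minus strand: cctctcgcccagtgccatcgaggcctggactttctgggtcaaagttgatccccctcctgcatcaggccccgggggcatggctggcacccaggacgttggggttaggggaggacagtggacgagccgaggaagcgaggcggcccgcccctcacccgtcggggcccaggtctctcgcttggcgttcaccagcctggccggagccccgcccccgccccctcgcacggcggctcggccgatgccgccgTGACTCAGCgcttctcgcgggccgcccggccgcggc

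Srxn1 has AP-1 letters in 2 places, at bases -102 to -96 and -45 to -39 counted from the start. Those at -45 to -39 are followed by GC, so the stretch reads TGAGTCAGC. This differs from TGACTCAGC in 1 base and was not among the letters searched for. An ARE core match, TGACCTAGC, lies just after the start of Srxn1 at bases 29 to 37 and runs past the printed stretch. Txnrd1 has 3 windows, for different starts, and the one printed lies inside the annotated gene. It alone holds a match, an ARE core at -92 to -84 that reads TGACAAAGC on the minus strand. Gstm5, which fell, has an AP-1 match at -176 to -170 and a core match at -42 to -34. In the Prdx5 stretch none of these letters occur. The combined letters TGACTCAGC lie at -133 to -125 in Prdx1 and at -6 to 3 in Me1, in the printed one of the 2 windows of Me1. The ARE core was found for 11 of the 34 genes with a window (32.4%), against 14.0% of all genes and 12.4% of all windows of that length. It was found for 3 of the 6 called genes with a window and for 8 of the 28 others, namely Nfe2l2, Gclm, Prdx1, Pgd, Mgst1, Me1, Sod1 and G6pdx. AP-1 letters were found for 6 of the 34 genes (17.6%), Srxn1, Gstm5, Prdx1, Me1, Gstp1 and Osgin1, against 5.95% of all genes and 5.20% of all windows. A match is a run of letters in a short window, and it was present in genes that rose, that fell and that did not pass the test.

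The regulators themselves showed no shift that passed the test. Nfe2l2 stood at 18.7, 19.9 and 22.5 CPM (lowest, median and highest of 7) in D95N and at 17.4, 19.2 and 22.2 CPM in 8 WT libraries, and the groups overlapped almost wholly. The log2 fold change of Nfe2l2 was 0.05 with a standard error of 0.05 (edgeR, adjusted p = 0.474), and errors of log2 fold changes below are standard errors too. Keap1, the sensor, stood at 71.6, 74.8 and 80.3 CPM in D95N and at 73.4, 75.6 and 77.5 CPM in WT. For Keap1 the D95N libraries spread to both sides of the WT range, 3 above it and 2 below, around nearly the same mean (75.8 against 75.4 CPM). Its log2 fold change was 0.01 ± 0.03 (edgeR, adjusted p = 0.878), and it lay just below 0 with library totals or upper-quartile factors as the scaling.

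Srxn1 showed the largest shift of the 40 genes. It encodes sulfiredoxin, which uses ATP to repair peroxiredoxins whose catalytic cysteine has been over-oxidised, and is among the best known NRF2 and AP-1 targets. Srxn1 (ENSMUSG00000032802, GRCm38 chromosome 2, 152105516 to 152111376) stood at 115, 182 and 229 CPM in D95N and at 104, 108 and 122 CPM in WT. In 6 of 7 D95N libraries it lay above every WT library, and in animal 42 it lay within the WT range. It rose 1.64-fold, a log2 fold change of 0.71 ± 0.11 (edgeR, adjusted p = 0.000392). Its standard deviation was 39.5 CPM in D95N and 6.23 CPM in WT, so the D95N animals differed widely among themselves.

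Hmox1, haem oxygenase 1, opens the haem ring and releases iron, carbon monoxide and biliverdin, and is the textbook inducible target of the pathway. Hmox1 (ENSMUSG00000005413, chromosome 8, 75093621 to 75100589) stood at 6.46, 7.71 and 12.03 CPM in D95N and at 4.58, 5.36 and 6.95 CPM in WT. The D95N animals 4, 21, 44 and 50 lay above the WT range, animal 50 by the widest margin, and the other 3 lay within it. It rose 1.43-fold, with a log2 fold change of 0.52 ± 0.13 (edgeR, adjusted p = 0.00651). Without animal 50 the log2 fold change was 0.39 (edgeR, adjusted p = 0.00841), and over all 21 alternatives the adjusted p ran from 0.000734 to 0.0147. Summed haemoglobin and Alas2 transcripts, markers of red blood cells, stood at 35.99 to 148 CPM in D95N and at 73.6 to 286 CPM in WT. The difference did not pass once adjusted over 9 marker lists (exact permutation test, two-sided, p = 0.0238, adjusted 0.0713). All 5 of these genes were called lower in edgeR, where 11.6% of all genes were. The part of blood in the level of Hmox1 was not tested.

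Nqo1, a quinone reductase and another standard reporter of NRF2, did not follow. It stood at 4.14, 5.10 and 5.31 CPM in D95N and at 4.97, 5.15 and 5.60 CPM in WT, with 3 D95N libraries below the WT range and none above it. Its log2 fold change was -0.11 ± 0.07 (edgeR, adjusted p = 0.285). Osgin1, a target linked to growth control, was at 0.678 CPM in D95N and 0.698 CPM in WT, and its log2 fold change was -0.06 ± 0.19 (edgeR, adjusted p = 0.856). An approximate 95% interval of the log2 fold change of Osgin1, made from its standard error with a normal distribution, ran from -0.43 to 0.32. A shift of the size seen for Gclc below lies within it, so such a shift of Osgin1 could not be told from none. Of the 4 genes grouped here as haem, quinone and other NRF2 targets, then, Hmox1 and Srxn1 rose and Nqo1 and Osgin1 did not pass. Among all genes tested 15.2% were called higher. Further known targets, such as Gclm, Txnrd1 and Slc7a11, are described with their own groups below.

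**Figure D2:**
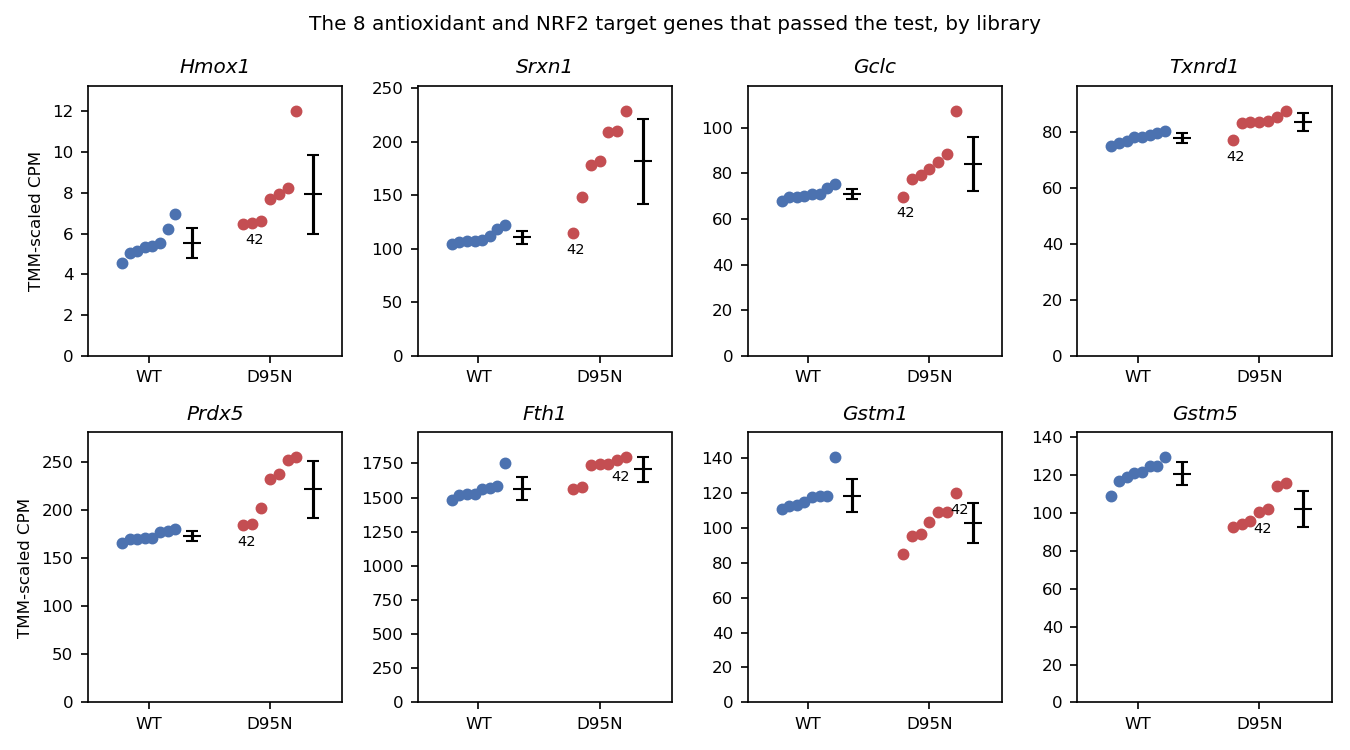
CPM of the 8 genes that passed the test, 1 panel a gene from a baseline of 0, with a point for each library (8 WT, 7 D95N) and a bar for mean and SD. For Prdx5 the 7 D95N points lie above all 8 WT points, while for the other 7 genes at least 1 D95N point lies within the WT range.

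Among the genes of glutathione synthesis and recycling Gclc alone passed the main test. Gclc encodes the catalytic subunit of glutamate-cysteine ligase, the rate-limiting enzyme. Gclc (ENSMUSG00000032350, chromosome 9, 77754535 to 77794485) stood at 69.8, 81.8 and 108 CPM in D95N and at 68.0, 70.5 and 75.2 CPM in WT. It lay above the WT range in 6 of 7 D95N libraries and within it in animal 42. It rose 1.18-fold, with a log2 fold change of 0.24 ± 0.07 (edgeR, adjusted p = 0.0116). Gclm, the modifier subunit of the same enzyme and itself a known NRF2 target, was at 83.6 ± 6.53 CPM over 7 D95N libraries (mean ± SD) and at 79.5 ± 3.83 CPM over 8 WT libraries, with 3 D95N libraries above the WT range. Its log2 fold change was 0.07 ± 0.05 (edgeR, adjusted p = 0.248). Gss, glutathione synthetase, had a log2 fold change of 0.04 (edgeR, adjusted p = 0.579). Gsr, which returns oxidised glutathione to its reduced form, had one of 0.11 (edgeR, adjusted p = 0.171). Of 21 alternatives Gsr passed in 1, without animal 42 (edgeR, adjusted p = 0.0340), where 17.9% of all genes were called higher. Its highest adjusted p, also in edgeR, was 0.354. Animal 42 held the lowest Gsr level of the 7.

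The thioredoxin system runs in parallel to glutathione, with thioredoxin reductase passing electrons from NADPH to thioredoxin and on to peroxiredoxins. Txnrd1, the cytosolic reductase, a selenoprotein and a known NRF2 target, rose slightly. Txnrd1 (ENSMUSG00000020250, chromosome 10, 82833951 to 82897712) stood at 77.3, 83.8 and 87.9 CPM in D95N and at 75.3, 78.3 and 80.4 CPM in WT. Here too 6 of 7 D95N libraries lay above the WT range and animal 42 lay within it. The fold was 1.07 and the log2 fold change 0.10 ± 0.03 (edgeR, adjusted p = 0.0193). The call was lost with upper-quartile factors (adjusted p = 0.0539) and with library totals (adjusted p = 0.0795) in edgeR. Its mitochondrial counterpart Txnrd2 had a log2 fold change of -0.04 (edgeR, adjusted p = 0.640). Cytosolic Txn1 and mitochondrial Txn2, the thioredoxins themselves, had log2 fold changes of 0.05 and -0.02 (edgeR, adjusted p = 0.445 and 0.687).

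Of the 6 peroxiredoxins, the thiol enzymes that remove hydrogen peroxide, 1 rose. Prdx5 is the atypical peroxiredoxin found in mitochondria, peroxisomes and cytosol. Prdx5 (ENSMUSG00000024953, chromosome 19, 6906697 to 6910106) stood at 185, 233 and 255 CPM in D95N and at 166, 171 and 180 CPM in WT. All 7 D95N libraries lay above all 8 WT libraries, which held for 1.81% of all genes tested and for no other gene of the 40. It rose 1.28-fold, with a log2 fold change of 0.36 ± 0.07 (edgeR, adjusted p = 0.00115). The D95N libraries were spread out, with animals 41 and 42 close to the WT level at 186 and 185 CPM and animal 50 at 203 CPM. Animals 4, 21, 28 and 44 stood at 233 to 255 CPM. The exons of Trmt112, a methyltransferase cofactor on the other strand, overlap 19.1% of the Prdx5 exons, and the strand setting of the counting is not given in the sources used here. Trmt112 itself stood at 1.88 CPM in D95N and 2.11 CPM in WT, a log2 fold change of -0.16 (edgeR, adjusted p = 0.401).

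The typical peroxiredoxins Prdx1, Prdx2, Prdx3 and Prdx4, which are the substrates of sulfiredoxin, did not pass the test, and neither did Prdx6. Cytosolic Prdx1 stood at 59.4 ± 4.04 CPM over 7 D95N libraries (mean ± SD) and at 61.1 ± 4.71 CPM over 8 WT libraries, a log2 fold change of -0.04 (edgeR, adjusted p = 0.607). Those of cytosolic Prdx2 and mitochondrial Prdx3 were -0.01 and -0.02 (edgeR, adjusted p = 0.783 and 0.726). Prdx4 of the endoplasmic reticulum had -0.11 (edgeR, adjusted p = 0.228), and the 1-cysteine enzyme Prdx6, abundant in astrocytes, had 0.06 (edgeR, adjusted p = 0.385). The repair enzyme thus passed the test at the transcript level and the typical peroxiredoxins did not. The count ratio of Srxn1 to Prdx1 within a library had a median of 3.03 in D95N (1.99 to 4.17) and 1.84 in WT (1.57 to 2.12), and 6 of 7 D95N libraries lay above the WT range. The log2 difference of this ratio was 0.72. Such a ratio needs no scaling between libraries, but it was chosen after the values of both genes had been seen, so it is a description with no test.

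A further 3 ratios within a library, chosen in the same way, are given as descriptions too. Gclc over Gclm had a median of 0.953 in D95N and 0.887 in WT, with 4 of 7 D95N libraries above the WT range and a log2 difference of 0.16. Txnrd1 over Txnrd2 had a median of 6.47 in D95N and 6.08 in WT, with 2 D95N libraries above the WT range and a log2 difference of 0.13. Fth1 over Ftl1 had a median of 36.7 in D95N and 33.2 in WT and a log2 difference of 0.09, with 4 D95N libraries above the WT range. In each of the 3 ratios the groups overlapped.

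None of the 7 dismutases, catalase and glutathione peroxidases passed the test, against 26.8% of all genes. Sod1 of the cytosol had a log2 fold change of 0.03 (edgeR, adjusted p = 0.580). Sod2, the manganese enzyme of mitochondria, had -0.05 (edgeR, adjusted p = 0.273), although 5 of 7 D95N libraries lay below the WT range, at 126 to 143 CPM against 134 to 146 CPM. Sod3, the secreted form, had 0.16 with 4 D95N libraries above the WT range (edgeR, adjusted p = 0.153). Cat, the peroxisomal catalase, spread from 41.6 to 73.3 CPM in D95N and from 47.4 to 52.4 CPM in WT, with 3 animals above the WT range and 2 below it (edgeR, log2 fold change 0.10, adjusted p = 0.392). The Cat levels of D95N animals thus lay on both sides of a narrow WT range.

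The glutathione peroxidases remove peroxides at the cost of glutathione, and these 3 are selenoproteins. Gpx1, the cytosolic form, had a log2 fold change of 0.05 (edgeR, adjusted p = 0.391). Gpx4, which reduces lipid peroxides and guards against ferroptosis, had 0.11 (edgeR, adjusted p = 0.111). Gpx3, a secreted form, had -0.28 ± 0.15 (edgeR, adjusted p = 0.175), at 19.2 ± 5.12 CPM over 7 D95N libraries (mean ± SD) and at 23.3 ± 4.28 CPM over 8 WT libraries, with 4 D95N libraries below the WT range. Without animal 42, Gpx3 (adjusted p = 0.0298) and Sod3 (adjusted p = 0.0457) passed edgeR's test as well, in opposite directions. Each passed in this 1 of 21 alternatives only, and with 1 library left out their adjusted p in edgeR reached 0.313 and 0.302.

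Glutathione transferases couple glutathione to electrophiles, and the pair that fell belongs to the mu class. Gstm1 (ENSMUSG00000058135, chromosome 3, 108012255 to 108017973) stood at 84.8, 103 and 120 CPM in D95N and at 111, 116 and 141 CPM in WT. In 6 of 7 D95N libraries it lay below the WT range, with animal 42 as the exception. Its fold was 0.868 and its log2 fold change -0.20 ± 0.06 (edgeR, adjusted p = 0.0271), and 18.9% of its 50-base stretches also occur in other transcripts of the family or its pseudogenes. Without D95N animal 4, 44 or 50 its call was lost (edgeR, adjusted p up to 0.0552). Gstm5 (ENSMUSG00000004032, chromosome 3, 107895821 to 107898686) stood at 92.6, 100.5 and 116 CPM in D95N and at 109, 121 and 129 CPM in WT. It lay below the WT range in 5 of 7 D95N libraries, animal 42 among them, and its fold was 0.845, with a log2 fold change of -0.24 ± 0.05 (edgeR, adjusted p = 0.00280).

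Gstm1 is known as an astrocyte transcript of the brain. Over 6 astrocyte markers, 3 were called lower in D95N (Slc1a3, Gja1 and Aldoc) and none higher, and none of the 6 was at 0 in every library. Among all genes tested 11.6% were called lower. The summed level of the 6 markers was 3885 to 4717 CPM in D95N and 4445 to 4661 CPM in WT (exact permutation test, two-sided, p = 0.0213, adjusted over 9 marker lists 0.0713). The part of astrocyte content in the levels of Gstm1 and Gstm5 was not tested. Meningeal fibroblast markers summed to 44.1 to 80.2 CPM in D95N and 66.0 to 106 CPM in WT (exact permutation test, p = 0.00715, adjusted 0.0643). Of these 7 markers 3 were called lower in edgeR. With TMM scaling no marker sum passed at an adjusted p of 0.05. The other transferases did not pass: Gsta4 (log2 fold change 0.01), Gstp1 (0.05), Mgst1 (-0.12) and Mgst3 (-0.03) had adjusted p between 0.272 and 0.938 in edgeR.

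None of the 5 genes grouped here under NADPH supply and the pentose phosphate pathway passed the test, against 26.8% of all genes called. G6pdx, the entry enzyme of the pentose phosphate pathway, had a log2 fold change of -0.04 (edgeR, adjusted p = 0.453). Pgd, the next dehydrogenase, had 0.08 with 4 D95N libraries above the WT range (edgeR, adjusted p = 0.138). Taldo1 and Tkt of the non-oxidative branch had 0.07 and 0.01 (edgeR, adjusted p = 0.263 and 0.895). Me1, malic enzyme, whose combined ARE and AP-1 letters are printed above, had 0.11 (edgeR, adjusted p = 0.211). In 5 of 7 D95N libraries Me1 lay above the narrow WT range of 36.4 to 41.4 CPM, and in 1 it lay below.

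Ferritin stores iron in shells of heavy and light chains. Fth1, the heavy chain with ferroxidase activity (ENSMUSG00000024661, chromosome 19, 9980598 to 9985098), stood at 1561, 1743 and 1797 CPM in D95N and at 1479, 1547 and 1752 CPM in WT. In 2 D95N libraries, animals 28 and 42, it lay above the WT range, whose top was set by WT animal 32 alone. The fold was 1.09 and the log2 fold change 0.12 ± 0.04 (edgeR, adjusted p = 0.0325). This is the least steady call of the 8: it was lost with upper-quartile factors (adjusted p = 0.0814), with library totals (adjusted p = 0.120) and when any 1 of 9 of the 15 libraries was left out (adjusted p up to 0.0630), all in edgeR. These were D95N animals 4, 21, 28 and 41 and WT animals 8, 11, 19, 24 and 30. Ftl1, the light chain, had a log2 fold change of 0.04 (edgeR, adjusted p = 0.583), and 58.4% of its 50-base stretches occur in other transcripts, so its counts depend on how shared reads were treated.

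Per kilobase of exon the 40 genes spanned more than 3 orders of magnitude in WT. Fth1 stood highest at 451 CPM per kilobase, ahead of Gstm5 at 94.5, Prdx5 at 80.9 and Gstm1 at 80.3. In D95N Prdx5 at 104 CPM per kilobase stood above Gstm5 at 79.9. Srxn1 went from 39.3 in WT to 64.4 in D95N, past Prdx2, Prdx3, Gpx1 and Prdx6, which stood between 42.7 and 49.7 in WT. The reporters Nqo1 and Hmox1 sat near the bottom of the order, at 3.39 and 3.15 CPM per kilobase in WT, a pair that does not differ beyond the spread between libraries there. Osgin1 was lowest at 0.261. The genes that rose were thus found at the top (Fth1), in the middle (Gclc) and near the foot (Hmox1) of the range.

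**Figure D3:**
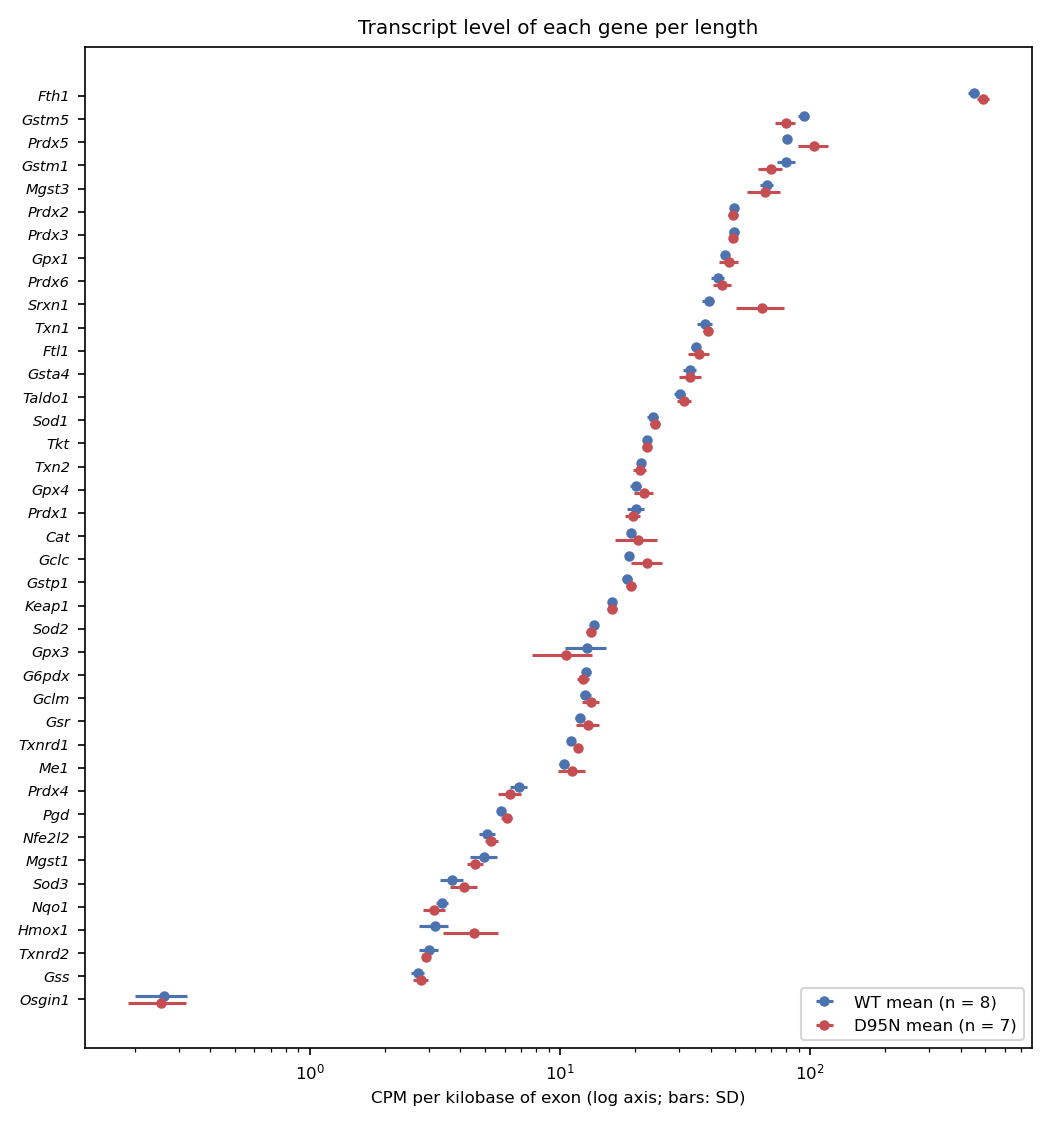
Mean CPM per kilobase of exon on a log axis for the 40 genes in WT (8 libraries) and D95N (7 libraries), ordered by the WT level, with bars for the SD. Fth1 stands highest and Osgin1 lowest, and the widest gaps between the groups are those of Srxn1 and Hmox1.

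Read library by library, the shift was shared by most D95N animals and weak in 1. A library was scored by how many of the 8 called genes lay past the WT range on the D95N side. These genes were chosen by this same contrast, so the score is a description. D95N animals 4, 44 and 50 had 7 of 8 genes past it, animals 21, 28 and 41 had 6, and animal 42 had 3, namely Prdx5, Fth1 and Gstm5. Animal 42 was lowest of the 7 for Srxn1, Gclc, Txnrd1 and Prdx5 and highest for Gstm1. It also had the highest sum of red blood cell markers in its group, 148 CPM, where the next D95N animal had 71.1 CPM. Set against the other 7 WT libraries, WT animal 24 had 4 genes past their range, animal 32 had 2, animals 8 and 16 had 1 each, and the rest had none. Without animal 42, 8 of the 40 genes were called higher and 3 lower, at a background of 17.9% and 15.2%.

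**Figure D4:**
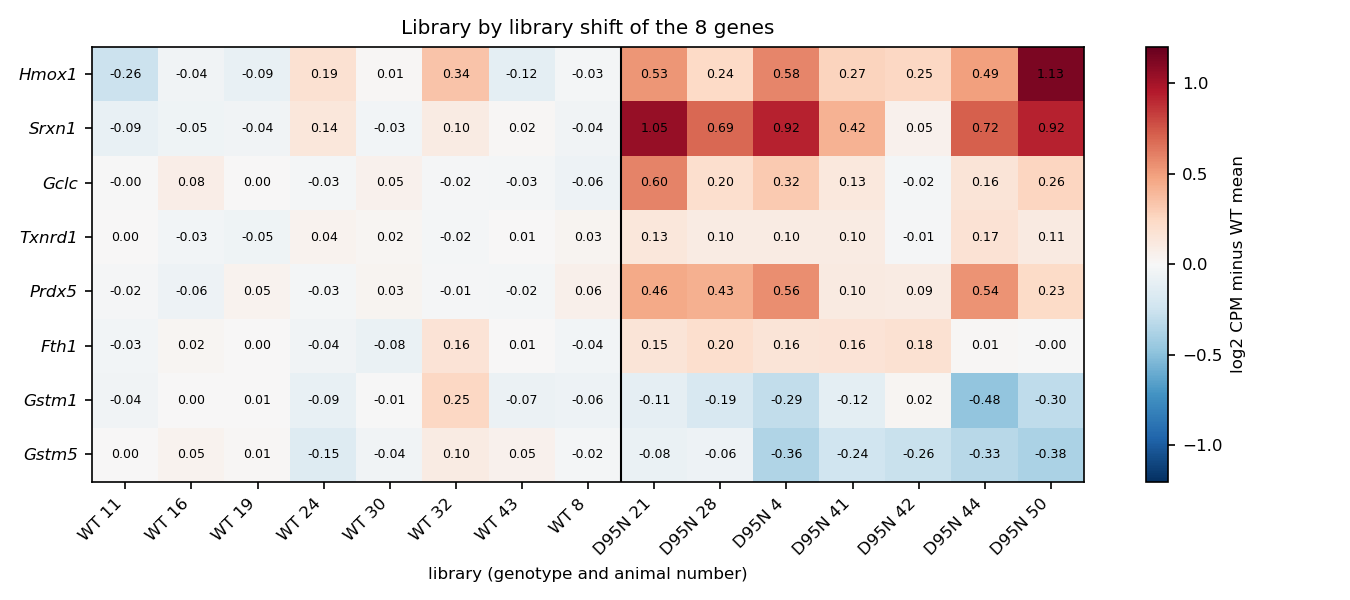
Log2 CPM minus the WT mean for the 8 called genes in each of the 15 libraries, red for higher and blue for lower, with WT animals on the left of the line and D95N animals on the right. Srxn1 runs from 0.05 in D95N animal 42 to 1.05 in animal 21, and Hmox1 reaches 1.13 in animal 50.

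Spread between animals was larger in D95N for 32 of the 40 genes (80%), as it was for 83% of all genes tested. The median SD of log2 CPM over the 40 genes was 0.114 in D95N and 0.0724 in WT, and over all genes 0.149 and 0.0878. The share of genes with the wider spread in D95N was thus close to that of all genes.

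The rest of the pathway was read from a list of 90 further genes, of which 86 were tested. In D95N 14 of them rose and 10 fell (27.9% of those tested, against 26.8% of all genes), with a median log2 fold change of -0.03. The split depended on the scaling: it was 14 higher and 16 lower with upper-quartile factors and 12 higher and 20 lower with library totals. Without D95N animal 42 it was 14 higher and 16 lower. The background moved too, from 15.2% higher and 11.6% lower to 12.8% and 15.7% with upper-quartile factors and to 12.1% and 16.9% with library totals, under which the median log2 fold change of all genes was -0.04.

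Of the partners of NRF2, Maff, a small MAF protein, rose 2.27-fold, to 5.12 ± 2.65 CPM (SD, n = 7) against 2.23 ± 0.559 CPM (SD, n = 8), with 5 of 7 D95N libraries above the WT range (edgeR, adjusted p = 0.00439). Bach1, the haem-sensitive repressor at the same elements, rose 1.17-fold (edgeR, adjusted p = 0.0235; 0.0511 with library totals). Rbx1, the RING subunit of the ligase that degrades NRF2, fell to 0.933 of the WT level, with 6 of 7 D95N libraries below the WT range (edgeR, adjusted p = 0.0197). Cul3, its scaffold, had a log2 fold change of 0.08 (edgeR, adjusted p = 0.216). Mafg, Mafk, Bach2, Nfe2l1 and Sqstm1 did not pass, with adjusted p between 0.0863 and 0.820 in edgeR. Bach1, Rbx1 and, below, Slc3a2, Ptgr1 and Park7 were picked out after their values had been seen.

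Among the named genes that carry or use cystine and glutathione, Slc7a11, the cystine carrier subunit that feeds glutathione synthesis and a textbook NRF2 target, fell to 39.6 ± 7.44 CPM (SD, n = 7) against 51.2 ± 5.54 CPM (SD, n = 8), a fold of 0.774 with 5 D95N libraries below the WT range (edgeR, adjusted p = 0.0137). Slc3a2, the heavy chain it shares with other amino acid carriers, rose 1.16-fold (edgeR, adjusted p = 0.0124). Abcc1, an exporter of glutathione conjugates, rose 1.35-fold from 22.02 to 29.64 CPM, above the WT range in 6 of 7 libraries (edgeR, adjusted p = 0.00226). Ggt7, a member of the gamma-glutamyltransferase family, rose 1.16-fold (edgeR, adjusted p = 0.00569). For Ggt7 all 7 D95N libraries lay above all WT libraries, as for 1.81% of all genes. Gstt1, a theta class transferase, fell to 0.718 of the WT level, from 10.6 to 7.62 CPM, with all 7 D95N libraries below all WT libraries, as for 1.47% of all genes (edgeR, adjusted p = 0.000585).

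Of enzymes that clear reactive carbonyls, Hagh, glyoxalase 2, rose 1.32-fold, to 95.8 ± 14.6 CPM (SD, n = 7) against 72.7 ± 2.71 CPM (SD, n = 8), above the WT range in 6 of 7 libraries (edgeR, adjusted p = 0.00128). Ptgr1, a reductase of unsaturated aldehydes, rose 2.59-fold, but only 3 of 7 D95N libraries lay above the WT range (edgeR, adjusted p = 0.0114; limma-voom, 0.0533). Txnip, which binds and inhibits thioredoxin and responds to glucose, fell to 0.713 of the WT level, from 43.2 to 30.8 CPM (edgeR, adjusted p = 0.00125). Txndc12, a thioredoxin-like protein of the endoplasmic reticulum, fell to 0.868 (edgeR, adjusted p = 0.00213). For Txndc12 all 7 D95N libraries lay below the WT range, as for 1.47% of all genes. Park7, the redox-sensitive protein DJ-1, rose 1.08-fold (edgeR, adjusted p = 0.0167; 0.0742 with library totals).

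**Figure D5:**
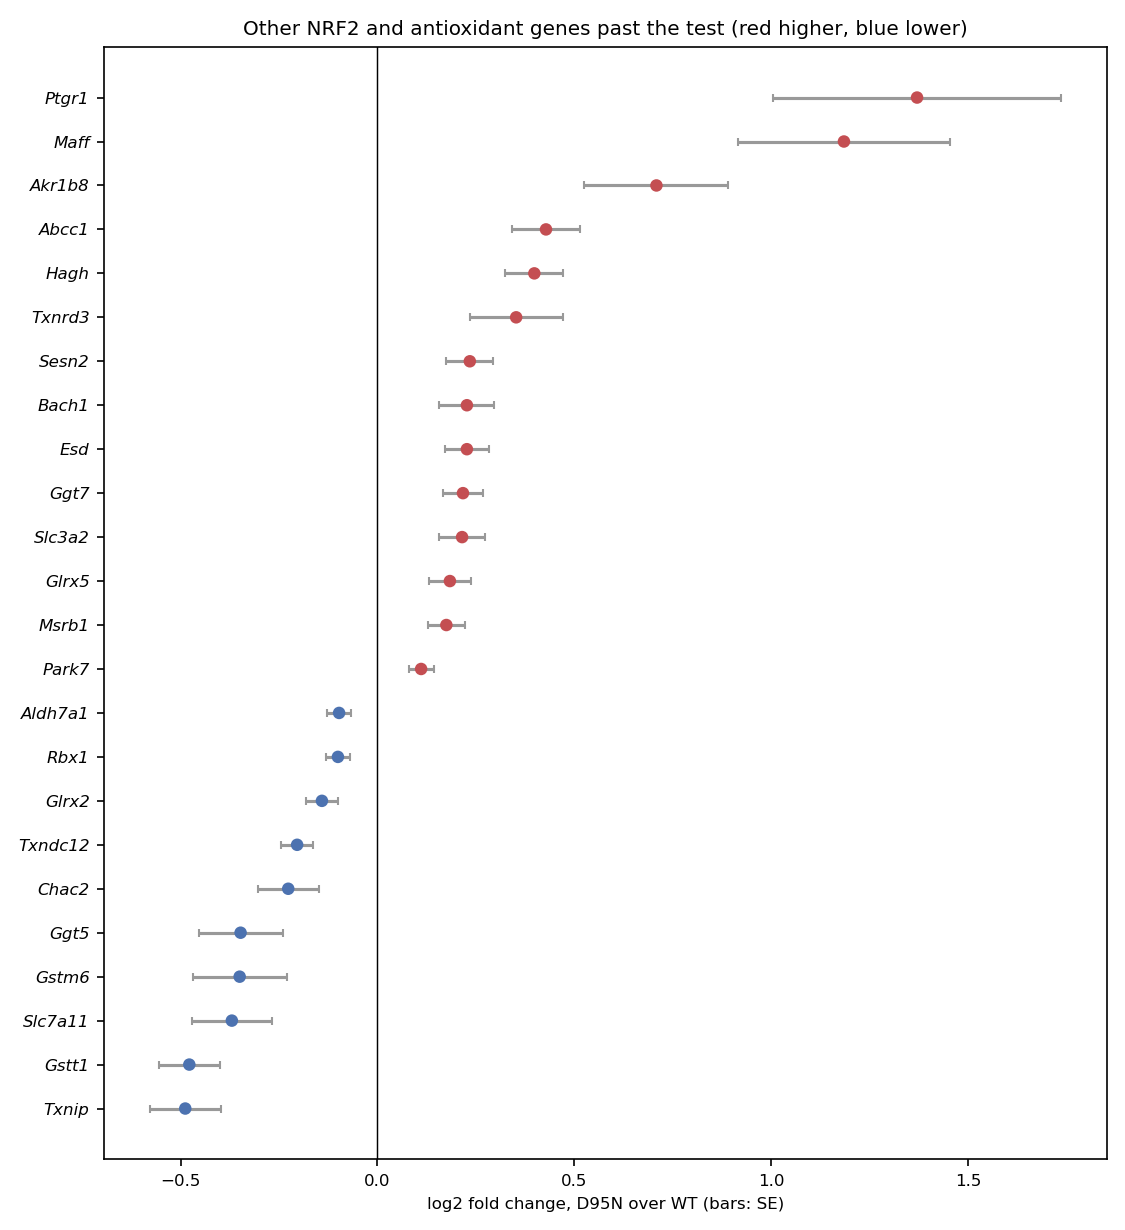
Log2 fold change of D95N over WT, with the standard error, for the 24 of 86 further pathway genes that passed the test, 14 higher (red) and 10 lower (blue). Ptgr1 and Maff reach beyond 1 with wide bars, while Txnip and Gstt1 lie lowest with log2 fold changes of -0.49 and -0.48.

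Because Txnrd1, Txnrd2 and the 3 glutathione peroxidases are selenoproteins, made by reading a stop codon as selenocysteine, the family was read as a whole. Of 22 tested selenoprotein genes 4 rose and 1 fell (22.7%, against 26.8% of all genes), with a median log2 fold change of -0.02. Selenow, a small abundant selenoprotein of neurons and muscle, rose 1.19-fold, to 560.4 ± 57.4 CPM (SD, n = 7) against 470.9 ± 16.5 CPM (SD, n = 8), above the WT range in 6 of 7 libraries (edgeR, adjusted p = 0.00266). Msrb1, a methionine sulfoxide reductase, rose 1.13-fold, also in 6 of 7 (edgeR, adjusted p = 0.0120). Txnrd3, the third reductase, rose 1.28-fold from 6.59 to 8.42 CPM (edgeR, adjusted p = 0.0354). The call of Txnrd3 was lost in 9 of 21 alternatives (adjusted p 0.00999 to 0.0816), namely limma-voom and, in edgeR, without D95N animal 4, 21, 28 or 50 or WT animal 19, 24, 32 or 43. Selenos, of the endoplasmic reticulum, fell to 0.925 with 6 of 7 libraries below the WT range (edgeR, adjusted p = 0.0393). The call of Selenos was lost in 10 of 21 alternatives (adjusted p 0.0139 to 0.0939), namely edgeR without a filter and without D95N animal 21, 41 or 50 or WT animal 8, 11, 16, 30, 32 or 43.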

How the data were processed

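RNA of 15 animals was analysed, 7 D95N and 8 WT by the genotype labels. The authors deposited raw counts per Ensembl gene, 1 table a sample; per the submitters' processing notes they used STAR and featureCounts with GRCm38. Versions, strand setting and the treatment of reads with several matches: not given in the sources used here. Of 22524 identifiers 22291 matched GENCODE M21 of that build.

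The main test was edgeR 4.0.16 (quasi-likelihood, TMM factors, filterByExpr, genotype only, R 4.3.3) with Benjamini-Hochberg adjustment at 0.05, run also on simulated counts. The simulation gave both genotypes the same spread per gene, so it does not check the test under the wider spread of D95N. Fold changes are the model's, and SE is the log2 fold change over the square root of F. CPM, scaled by TMM, were derived from the deposited counts, also per kilobase of the union of annotated exons. Marker sums were tested exactly over 6435 regroupings of the libraries. Libraries were compared in pairs for duplicates, and none was found. Alternatives were DESeq2 1.42.0, limma-voom 3.58.1, 2 other scalings, 2 other filters and each library left out; count ratios within libraries were added, with no test printed, after the data were seen. The members, lists and rules were chosen with earlier results of these data known. The rule for names takes every called member, Nfe2l2, Keap1, Hmox1 and Nqo1 with values, other members by fold change, and from each further list up to 4 genes per direction by smallest p. Motifs were searched in Python 3.11.15.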

Additional observations from a re-analysis of the deposited data

Results flagged for a closer look

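Among 98 groups of values by gene or marker list and genotype, 13 held a library that stood apart from the rest by Dixon's criterion for small groups, and chance flags about 1 in 20. In D95N, animal 50 stood high for Hmox1 at 12.03 CPM, with the next at 8.21 CPM. Animal 42 stood low for Txnrd1 at 77.3 CPM, with the next at 83.4 CPM, and high for the sum of red blood cell markers at 148 CPM, with the next at 71.1 CPM. Animal 28 stood high for 3 genes: Gpx1 at 80.6 CPM (next 69.2), Gpx4 at 44.4 CPM (next 37.6) and Ftl1 at 57.9 CPM (next 48.3). Animal 21 stood low for the sum of microglial markers at 336 CPM, with the next at 401 CPM. In WT, animal 32 stood high for Fth1 at 1752 CPM (next 1587), Gstm1 at 141 CPM (next 118) and Gpx1 at 70.9 CPM (next 66.6). WT animal 11 stood high for Prdx4 at 17.0 CPM, with the next at 14.6 CPM. WT animal 19 stood high for Sod2 at 146 CPM, with the next at 138 CPM, and for the sum of skeletal muscle markers at 29.7 CPM, with the next at 10.5 CPM.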

How the results depend on the processing

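Srxn1, Prdx5, Hmox1, Gclc and Gstm5 kept their calls in all 21 alternatives. The number of the 40 genes called higher was 4 under either other scaling, which left out Txnrd1 and Fth1, and with 1 library left out it was 5 to 8 higher and 1 to 3 lower (1 without D95N animal 4, 44 or 50). Further pathway genes called lower numbered 16 with upper-quartile factors, 20 with library totals and 8 to 16 with 1 library left out (16 without D95N animal 42), and those called higher 13 to 15. Selenoprotein genes called lower numbered 2 with DESeq2, 3 with upper-quartile factors, 3 with library totals, 0 without a filter and 0 to 3 with 1 library left out (0 without D95N animal 50 or WT animal 8, 11, 16, 30, 32 or 43), and those called higher 3 to 5. With library totals 4 marker sums passed an adjusted exact permutation test: neuron (D95N minus WT -262 CPM, 0.0490), astrocyte (-346, 0.00839), red blood cell (-82.1, 0.0497) and meningeal fibroblast (-21.6, 0.0182). Log2 fold changes near 0 turned sign for Keap1 (-0.016 with upper-quartile factors, -0.027 with library totals), Gsta4 (-0.016, -0.028), Tkt (-0.018, -0.029) and Sod1 (-0.0045 with library totals). With 1 library left out they ran from -0.0042 to 0.021 for Keap1, -0.18 to 0.016 for Osgin1, -0.034 to 0.040 for Gsta4, -0.10 to 0.0091 for Mgst3, -0.0069 to 0.019 for Tkt and -0.0084 to 0.059 for Ftl1. The cause of these changes was not tested. The labels give no litter, batch or date, so no pairing or block could be fitted, and any such structure is not modelled. Depth limits Osgin1, Hmox1 and Nqo1 most, which have the fewest reads.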
